A study of Mus musculus with 2 samples.

Results

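The peripheral myelin genes described here were 7 genes, Mbp, Pmp22, Prx, Mag, Ncmap, Cldn19 and Mal, chosen by symbol among the 32285 genes counted, and all 7 were found. They were followed in single-cell RNA-seq of the temporomandibular joint (TMJ), the jaw joint, in 2 libraries of droplets. The WT library came from wild-type C57BL/6 mice and the mutant library from Prox1 mutant C57BL/6 mice. The mutant mice carried 1 constitutively inactive copy of Prox1, a lymphatic transcription factor, in every cell. The mice were female and the labels give their age as 8 to 10 weeks, and both groups had received complete Freund's adjuvant (CFA), which inflames the joint, so that no uninflamed joint was in the comparison. The sources used here do not say how many animals each library pooled. Each condition was 1 library, so genotype and library cannot be told apart, no test was run and each interval given covers counting error only.

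Myelin in peripheral nerves is made by myelinating Schwann cells, which wrap 1 segment of 1 axon each, while non-myelinating Schwann cells ensheath thin axons without wrapping them. A shared set of transcription factors, with Sox10 and Egr2 at its centre, switches on the structural proteins, membrane lipids and junction proteins of the sheath together. Myelin genes are also among the most abundant messages in nerve tissue, and RNA freed from broken Schwann cells can be picked up by droplets that hold other cells.

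The members sit in different layers of the sheath. Mbp encodes the cytoplasmic protein that holds the inner faces of compact myelin together, and its locus also gives rise to the golli transcripts known from immune cells. Pmp22 encodes a tetraspan protein of compact myelin that causes neuropathy when its dose changes. Periaxin, from Prx, is a scaffold of the outer Schwann cell membrane that binds Drp2 and the dystroglycan complex. Mag encodes an adhesion protein of the innermost membrane, facing the axon, which belongs to the sialic acid-binding lectins. Ncmap encodes a small membrane protein of noncompact myelin, and Cldn19 a claudin that seals tight junctions between the layers. Mal encodes a proteolipid of membrane rafts that takes part in sorting cargo to the myelin membrane and is made in several epithelia as well. The members other than Mbp lie in the genome (GRCm38) as follows: Pmp22 on chromosome 11 from 63128982 to 63159547, Prx on chromosome 7 from 27499324 to 27520214, Mag on chromosome 7 from 30899176 to 30914873, Ncmap on chromosome 4 from 135369576 to 135398227, Cldn19 on chromosome 4 from 119255414 to 119262438, and Mal on chromosome 2 from 127633226 to 127656695. Counted antisense genes overlap Prx (Gm15541) and Cldn19 (Gm12927), and whether the counting used strand is not stated, so reads of these pairs may have been shared.

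Because the members were high together in 1 cell type, the sequences just before their starts were searched for matches to the motifs of the factors above. RefSeq start sites (GRCm38.p6) were found for 6 of the 7 members, 13 in all, and the start farthest upstream was used for each. A SOX-type match (ACAAAG on either strand) was found in 1 member and an EGR-type match (GTGGGCG on either strand) in 1 member, and these promoters are printed with the match in capitals, 5′ to 3′ on the gene's strand. That of Mal, the member with the smallest difference between the Schwann cell classes, is printed beside them and has neither. Those of Pmp22, Prx and Ncmap, which are not printed, have neither as well. Mag is at chr7:30914923-30915172 on the minus strand, Cldn19 at chr4:119255191-119255413 on the plus strand and Mal at chr2:127656696-127656945 on the minus strand.
Mag: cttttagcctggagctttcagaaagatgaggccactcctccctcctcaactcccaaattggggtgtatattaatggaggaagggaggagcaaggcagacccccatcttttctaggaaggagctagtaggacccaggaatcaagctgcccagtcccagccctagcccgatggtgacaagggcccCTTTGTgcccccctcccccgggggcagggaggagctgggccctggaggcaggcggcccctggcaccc
Cldn19: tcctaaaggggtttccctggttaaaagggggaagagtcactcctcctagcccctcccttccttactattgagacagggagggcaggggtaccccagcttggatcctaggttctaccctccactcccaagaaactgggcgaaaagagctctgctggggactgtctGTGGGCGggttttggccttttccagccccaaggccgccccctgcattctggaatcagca
Mal: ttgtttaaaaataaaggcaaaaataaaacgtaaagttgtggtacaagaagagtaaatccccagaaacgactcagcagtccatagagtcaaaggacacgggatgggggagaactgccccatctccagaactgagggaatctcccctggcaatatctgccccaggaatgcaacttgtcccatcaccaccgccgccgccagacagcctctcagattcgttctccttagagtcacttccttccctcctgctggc
The capitals in Mag lie 67 bases before the start and are the SOX-type letters read from the opposite strand. Those in Cldn19 lie 86 bases before the RefSeq start, of which the last 27 bases lie within the annotated gene and are not printed. Of 32851 promoters of 250 bases, 16.5% held the SOX-type and 7.02% the EGR-type letters, set against 1 of 6 members for each. The letters TATAAA, found in 12.4% of promoters, were in none of the 6. A match is a description of the letters only.

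The WT library held 5709 barcodes with 53517206 UMIs (unique molecular identifiers, each counting 1 captured RNA molecule) and the mutant library 7846 with 62446987. After the study's filters 4352 and 5757 cells remained, with medians of 6997 and 4848 UMIs, and 4 kept barcodes were shared by the libraries. Prox1 itself stood at 11.6 CPM (counts per 1000000 UMIs) over the kept WT cells and at 5.80 CPM over the kept mutant cells. The mix of cells differed as well: endothelial-like cells made up 23.8% of WT and 10.8% of mutant cells, and cells left unnamed 14.8% and 41.5%. The part of this mix in the Prox1 levels was not tested. The cells fell into 45 clusters, of which 28 were named from marker genes that include no member. A myelinating Schwann-like cluster had 322 WT cells, 7.40% of those kept, and 147 mutant cells, 2.55%, with medians of 3243 and 4097 UMIs. A non-myelinating Schwann-like cluster had 50 WT cells, 1.15%, and 14 mutant cells, 0.243%, with medians of 6944.5 and 6397 UMIs. The 9 markers of myelinating cells used here, Egr2, Drp2 and Gldn among them, were all present in the first cluster of both libraries, with summed levels of 3735 CPM in WT cells and 3912 CPM in mutant cells against 60.4 and 64.3 CPM in the cells outside both clusters. Of the 10 markers of non-myelinating Schwann cells and glia, 10 had a UMI in the second cluster of WT and 8 in that of the mutant. There 9 and 8 of them were at least 2 times the level outside, with sums of 9058 and 7286 CPM against 307 and 199 CPM. The list covers glia as well, and the class is called non-myelinating Schwann-like for short. The markers differed between the libraries in this small class: Fabp7 gave 5789 CPM of the sum in WT and 1817 CPM in the mutant, while Apod was at 55.6 and 1164 CPM, and Ngfr and Gfap had 4 UMIs each in WT and 0 in the mutant. Apod went the other way in WT, where it was at 152 CPM outside both clusters and at 482 CPM in the myelinating cluster. Ncam1, an adhesion protein of these cells, was at 1717 and 1807 CPM.

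In myelinating Schwann-like cells every member was abundant in both libraries, and 2 proteins of compact myelin, Pmp22 and Mbp, made up most of their UMIs. Pmp22 stood at 7237 CPM in WT (95% interval 7086 to 7390.0, 8759 UMIs) and 6529.7 CPM in the mutant (6338 to 6725). Mbp stood at 4119.5 CPM in WT (4006 to 4235) and 3184 CPM in the mutant (3051 to 3322). Together they gave 41.5% and 23.6% of all member UMIs in WT and 44.1% and 21.5% in the mutant. Periaxin's gene Prx was at 1394 CPM in WT cells (1328 to 1462) and 1489.7 CPM in mutant cells (1399 to 1585). Ncmap, of noncompact myelin, was at 1810.2 CPM in WT (1735 to 1888) and 1270.4 CPM in the mutant (1187 to 1358). Mal was at 1892 CPM in WT (1815 to 1971) and 1377 CPM in the mutant (1289.9 to 1469). The adhesion and junction genes gave fewer counts. Cldn19 was at 675 CPM in WT (629.5 to 723) and 648 CPM in the mutant (588 to 711). Mag was at 312 CPM in WT (282 to 345) and 319 CPM in the mutant (278 to 364). The members together took 1.74% of all UMIs of these cells in WT and 1.48% in the mutant.

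**Figure D1:**
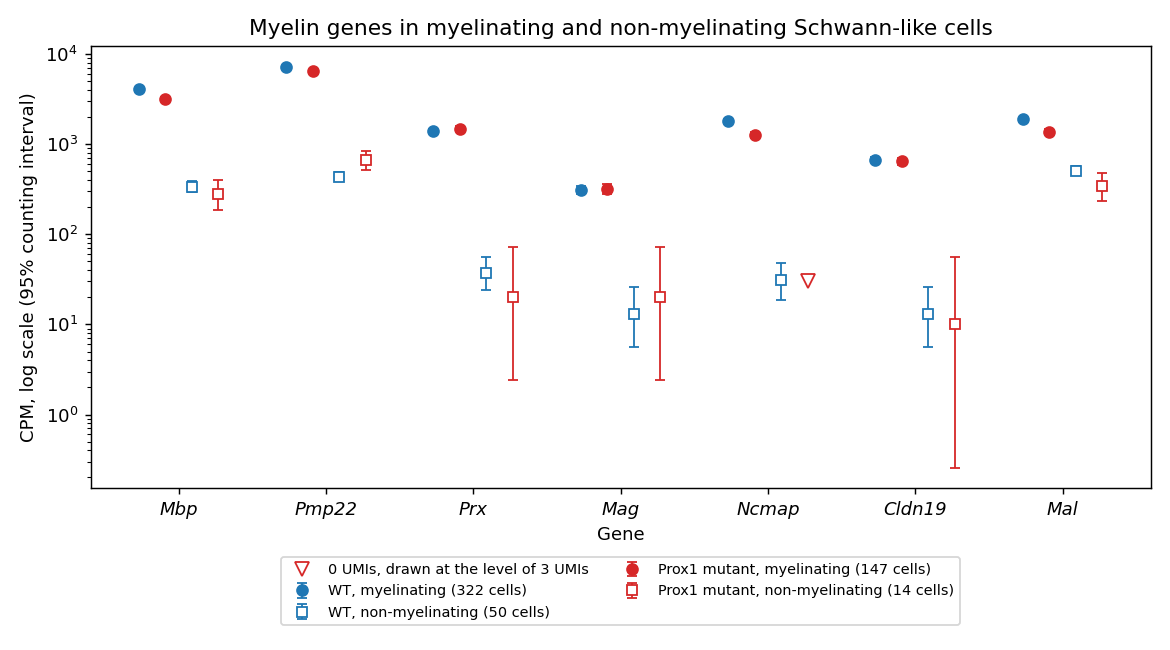
Level of each member in counts per 1000000 UMIs (log axis), in myelinating (filled) and non-myelinating (open) Schwann-like cells of the WT and mutant libraries; bars are exact 95% intervals for counting error and a triangle marks a gene with 0 UMIs. The filled points lie above the open ones for all 7 members in both libraries, by the least for Mal.

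All 7 members were at least 2 times higher in myelinating than in non-myelinating Schwann-like cells in both libraries, but by very unequal amounts. Of all genes with at least 50 UMIs, 12.6% (769 of 6094) were that much higher in WT and 20.9% (677 of 3232) in the mutant, while 12.2% and 9.34% were that much lower. In the mutant, every member but Pmp22 reached 50 UMIs only through the myelinating class, with 0 to 34 UMIs in the other class. The same held in WT for Prx, Mag, Ncmap and Cldn19, with 8 to 23 UMIs in the other class. The classes were also told apart by other myelin genes. The members' count of 7 of 7 is therefore a description, and nothing is drawn from it against this background. The fold ran from 3.70 to 58.3 in WT, with a median of 23.9, and from 4.04 to 74.2 in the mutant, with a median of 15.9. The size of the fold depended on the processing. In WT the log2 difference ranged over the other settings from 3.21 to 4.96 for Mag, from 3.73 to 5.82 for Prx and from 5.15 to 7.61 for Ncmap. It ranged from 4.56 to 6.19 for Cldn19, from 2.95 to 3.83 for Mbp and from 3.49 to 4.23 for Pmp22, against 1.78 to 2.15 for Mal.

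The compact myelin genes were also counted in the non-myelinating class. Mbp was at 338 CPM there in WT and 281 CPM in the mutant, 12.2-fold and 11.3-fold below the myelinating class (log2 differences of 3.61, interval 3.41 to 3.81, and 3.50, 2.97 to 4.10). Pmp22 was at 438 CPM among WT cells and 662 CPM among mutant cells, 16.5-fold and 9.86-fold below (log2 4.05, 3.87 to 4.23, and 3.30, 2.95 to 3.67). For comparison, the highest class outside Schwann cells had 177 CPM (WT) and 228 CPM (mutant) of Mbp, in T and NK-like cells. For Pmp22 it had 282 and 281 CPM, in mesenchymal-like cells. Mal, the raft proteolipid, was the nearest to equal. It was at 511 (WT) and 341 CPM (mutant), 3.70-fold and 4.04-fold below (log2 1.89, 1.72 to 2.06, and 2.01, 1.52 to 2.55). Mal also made up 37.0% of the members' UMIs in the non-myelinating class of WT and 25.6% in that of the mutant, against 10.8% and 9.29% in the myelinating class. In the mutant, 17 of the 34 Mal UMIs came from 1 droplet, without which its level was 194 CPM.

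The scaffold, adhesion and junction genes, with Ncmap, had few UMIs in the non-myelinating class. Prx was at 37.6 CPM in WT (23 UMIs) and 20.1 CPM in the mutant (2 UMIs), 37.1-fold and 74.2-fold below (log2 5.21, 4.62 to 5.88, and 6.21, 4.36 to 9.26). Cldn19 was at 13.1 CPM in WT (8 UMIs) and 10.0 CPM in the mutant (1 UMI), 51.6-fold and 64.5-fold below (log2 5.69, 4.71 to 6.91, and 6.012, 3.53 to 11.32). Mag was at 13.1 CPM in WT (8 UMIs) and 20.1 CPM in the mutant (2 UMIs), 23.9-fold and 15.9-fold below (log2 4.58, 3.58 to 5.80, and 3.99, 2.12 to 7.04). The intervals of the mutant values are wide, since the 14 cells gave 99637 UMIs in all. Ncmap was at 31.0 CPM in WT, 58.3-fold below (log2 5.87, 5.22 to 6.60), and had 0 UMIs in the mutant. There Ncmap in the myelinating class was at 42.2-fold a floor of 3 UMIs, and the interval of its log2 difference began at 5.10. In WT 13 of its 19 UMIs lay in 1 droplet, and its level without that droplet was 9.91 CPM.

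The list of 30 other myelin programme genes holds 12 that named the Schwann-like clusters or told them apart, Egr2, Drp2 and Gldn among them, so the difference of those genes between the classes was fixed by the naming and is not described. Of the 18 others, 13 had at least 50 UMIs in WT, and 8 of these were at least 2 times higher in the myelinating class and 1 lower, with a median log2 difference of 1.32 against 0.06 over all genes. Of 12 in the mutant, 5 were higher and 0 lower, with a median of 0.84 against 0.18. Over all genes 12.6% were that much higher and 12.2% lower in WT, and 20.9% and 9.34% in the mutant. Among the 5 was Yap1, on 58 against 4 UMIs, at a log2 difference of 1.10 (-0.33 to 3.02), which includes no change. In WT Yap1 went the other way, at -0.61 (-1.13 to -0.08). Cnp, a protein of myelin channels, was 3.99-fold higher in WT and 5.06-fold higher in the mutant. Qk, which controls the splicing of myelin messages, was 2.5-fold higher in WT and 2.77-fold higher in the mutant. Adgrg6, the receptor that starts myelination, was lower in WT, at 0.499 of the non-myelinating level (0.504 in the mutant). Of the 9 repair-type genes, only 2 had at least 50 UMIs in WT and 3 in the mutant. Of these, Sox2 was lower in the myelinating class of WT (62.8 against 242 CPM) and none passed the fold in the mutant.

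The counts in the non-myelinating class were set against those of the myelinating class by each member's ratio to Cldn19, since RNA from 1 source keeps its genes in 1 ratio. Cldn19 served as the reference because, of the members, it had the largest share of its UMIs in Schwann-like cells. Its few UMIs in the non-myelinating class, 8 in WT and 1 in the mutant, make the intervals wide. Mal stood out. It had 39.1 UMIs per Cldn19 UMI in the non-myelinating class of WT against 2.803 in the myelinating class, 13.96 times as many (interval 6.997 to 32.6), and in the mutant 15.99 times as many (2.68 to 650.1). Mbp and Pmp22 were also above the myelinating ratio in WT. Mbp was at 4.24 times it in WT (2.11 to 9.95) and at 5.696 times in the mutant (0.942 to 233), where the interval includes an equal ratio. Pmp22 was at 3.12 times among WT cells (1.56 to 7.31) and at 6.55 times among mutant cells (1.14 to 262). The intervals of the remaining members included an equal ratio in both libraries. Prx was at 1.39 times in WT (0.601 to 3.600) and 0.870 times in the mutant (0.0453 to 51.3). Mag was at 2.16 times in WT (0.707 to 6.61) and 4.07 times in the mutant (0.212 to 239.8), on 8 and 2 UMIs. Ncmap was at 0.886 times in WT (0.3702 to 2.34), and its 0 UMIs in the mutant allowed up to 19.9 times. So Mal and Pmp22 had more UMIs per Cldn19 UMI in the non-myelinating than in the myelinating class in both libraries, and Mbp in WT. The mutant values rest on 1 Cldn19 UMI, and 12 of the 66 Pmp22 UMIs there lay in 1 droplet. Each ratio is the fold of Cldn19 divided by that of the member, and Cldn19 was chosen for its large share in Schwann-like cells. Members with a smaller fold therefore stand above 1 by that choice, and the source of their counts was not tested. For Prx, Mag and Ncmap no UMIs beyond the ratio were detectable at this depth.

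**Figure D2:**
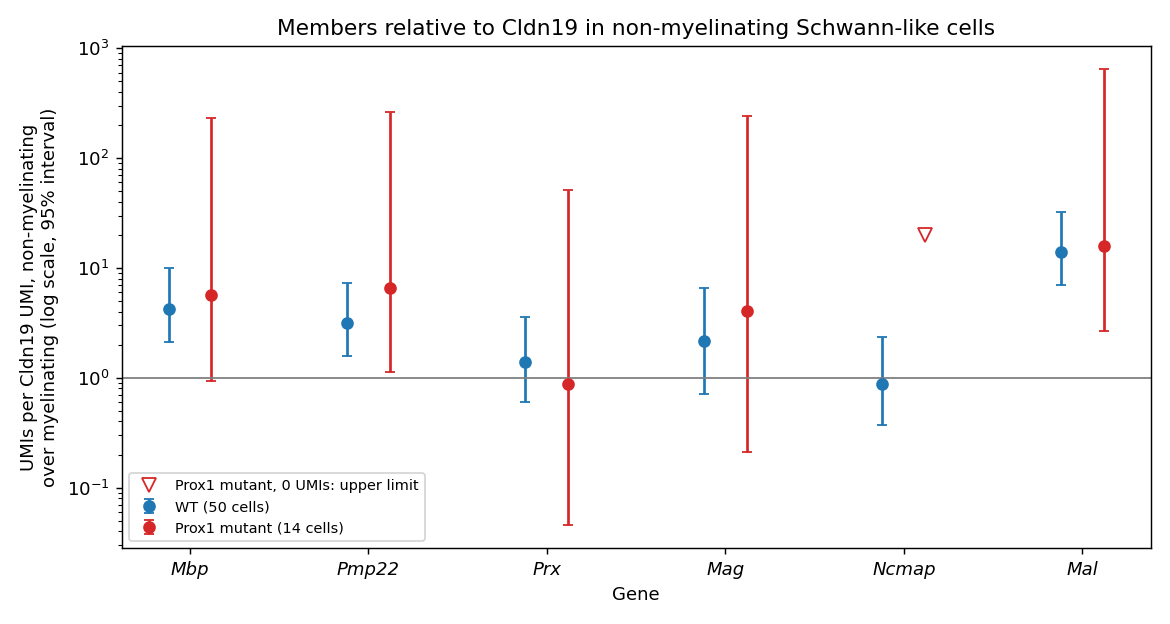
UMIs of each other member per Cldn19 UMI in non-myelinating Schwann-like cells, divided by the same ratio in myelinating ones (log axis), for the WT and the mutant cells; bars are 95% intervals for counting error, the line marks an equal ratio and a triangle marks the upper limit where a gene had 0 UMIs. Mal lies highest in both libraries, and the points of Mbp and Pmp22 lie above the line. The intervals of Prx, Mag and Ncmap include the line, as does that of Mbp in the mutant.

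Seen cell by cell, most myelinating cells carried most of the members. Each cell was thinned to 2000 UMIs so that depth would not set the counts, which left 260 of 322 WT and 133 of 147 mutant cells. The median cell then carried 6 of the 7 members in both libraries, 21.5% of the WT cells and 26.3% of the mutant cells carried all 7, and none carried 0. In the non-myelinating class (48 of 50 and 13 of 14 cells) the median was 2, with 0 members in 14.6% and 7.69% of cells and all 7 in none. Without thinning the medians were 6 and 7 in the myelinating class and 3 and 2 in the non-myelinating class. Among thinned neutrophils 83.5% of WT and 72.4% of mutant cells carried 0 members.

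The least detected members were the low ones. A Mag UMI was found in 37.7% of thinned myelinating cells in WT and 48.9% in the mutant (56.5% and 68.0% unthinned), and Cldn19 in 66.9% and 67.7% (81.4% and 81.0% unthinned). Ncmap was found in 234 of the 260 WT cells and in 79.7% of the mutant cells, Prx in 247 of 260 and 94.7%, Mal in 94.6% and 91.7%, Mbp in 98.8% and 98.5%, and Pmp22 in 99.6% and 100%. For comparison, smooth muscle and pericyte-like cells gave 206 and 120 thinned cells, with medians of 9144.5 and 13528 UMIs before thinning. Their shares were at most 1.94% for every member except Pmp22, which was found in 15.05% and 12.5%. This class had little Mbp (5.47 CPM, WT, and 1.19 CPM, mutant), and its mutant level was the lowest of the 15 classes outside Schwann cells. Mbp levels elsewhere reached 177 CPM (WT) and 228 CPM (mutant), among T and NK-like cells. The shares of smooth muscle and pericyte-like cells are therefore not a general background for Mbp. Shares in the non-myelinating class followed the split seen in the ratios. Pmp22 was found in 64.6% of WT and 69.2% of mutant cells, Mbp in 56.2% and 53.8%, and Mal in 58.3% and 23.1%, while Prx, Mag, Ncmap and Cldn19 were each found in at most 8.33%. Within myelinating cells the correlations of thinned counts were low, with a median of 0.14 over the 21 pairs in WT and 0.11 in the mutant. The highest in both libraries was that of Pmp22 with Mal, at 0.51 in WT and 0.39 in the mutant, followed by Pmp22 with Ncmap, at 0.37 and 0.28. These are descriptions over 260 and 133 cells that share a library. Few UMIs per thinned cell hold such correlations down, most of all for the low members. How far the members vary together between cells is therefore not drawn from them.

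**Figure D3:**
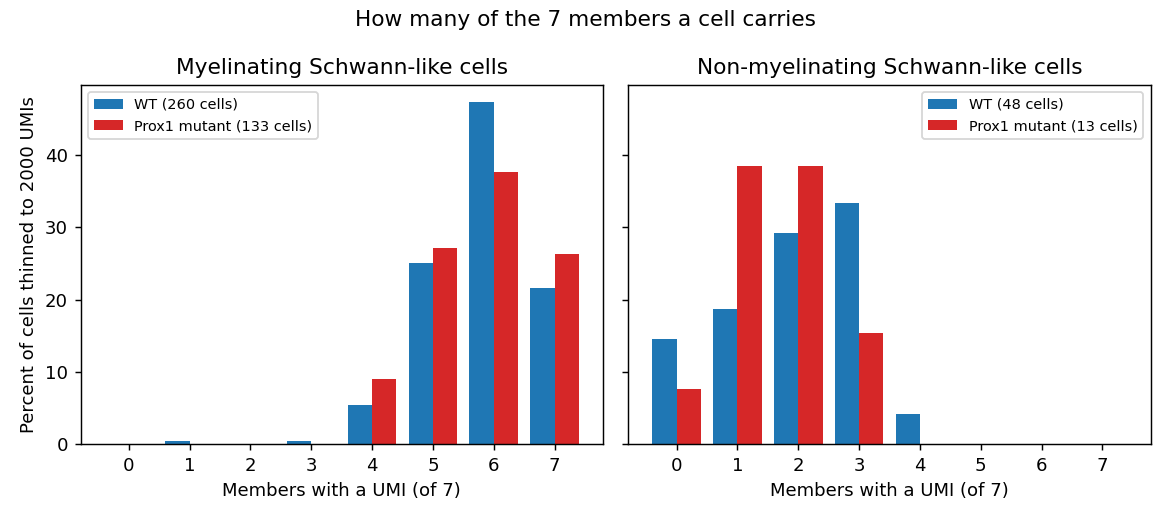
Percent of cells, each thinned to 2000 UMIs, by the number of the 7 members with at least 1 UMI, in myelinating and non-myelinating Schwann-like cells of both libraries. Myelinating cells peak at 6 members in both libraries and non-myelinating cells lie mostly at 3 or fewer.

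The mutant and WT libraries were then compared within each class. In myelinating Schwann-like cells no member differed by 2-fold, in a comparison where 1.66% of 6032 genes were at least 2 times higher and 1.96% at least 2 times lower in the mutant. Ncmap, Mal, Mbp and Pmp22 were lower in the mutant library beyond counting error, by less than 2-fold. The log2 ratios were -0.51 for Ncmap (interval -0.63 to -0.40), -0.46 for Mal (-0.57 to -0.35) and -0.37 for Mbp (-0.45 to -0.30). Pmp22 was at -0.15 (-0.20 to -0.10). The scaffold, adhesion and junction genes had intervals that include 0: Prx at 0.10 (-0.02 to 0.21), Mag at 0.03 (-0.22 to 0.27) and Cldn19 at -0.06 (-0.23 to 0.11). Over all genes the median was 0.02, with quartiles of -0.26 and 0.28, so Ncmap, Mal and Mbp lay below the lower quartile and the other members lay between the quartiles.

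Of the 24 other programme genes with at least 50 UMIs, 0 passed 2-fold in either direction, 13 were above and 11 below a ratio of 1, and the median log2 ratio was 0.08. The lowest were Cadm4, an adhesion molecule, at -0.87 (-1.29 to -0.47), Cnp at -0.40 (-0.53 to -0.27), Erbb3, a neuregulin receptor, at -0.26 (-0.62 to 0.09) and Pllp, a proteolipid, at -0.23 (-0.42 to -0.05). The highest were regulators: Yap1 at 0.49 (-0.03 to 1.01, which includes 0), Sox10 at 0.45, Pou3f1 at 0.40 and Zeb2 at 0.33. The other regulators with enough UMIs were Qk at 0.20 (0.14 to 0.27) and Egr2 at -0.04 (-0.22 to 0.14). Of the repair-type genes, Jun, which marks Schwann cells that have left myelination, was at -0.36 (-0.48 to -0.24) and Sox2 at 0.12 (-0.44 to 0.67). Runx2 was 11.2-fold higher in the mutant, but 70 of its 75 UMIs there came from 1 droplet, and without it the ratio was 0.748 (0.206 to 2.28).

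Markers listed for other cell types were counted in the myelinating class of both libraries. Of 107 markers on 17 lists of other cell types, 27 had 0 UMIs in the WT cells and 23 in the mutant cells, and the summed level per list ran from 0 to 1812 CPM in WT and from 7.41 to 1595 CPM in the mutant. Erythroid markers summed to 1812 CPM in WT against 591 CPM in the mutant, and neutrophil markers to 439.5 and 977 CPM. The highest list in the mutant was that of muscle cells, which includes Dmd and Lama2. Whether the Schwann-like cells make some of the listed genes themselves was not tested. The part of these lists in the library differences was not tested, nor was that of the median depth of 3243 against 4097 UMIs.

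In non-myelinating Schwann-like cells 3 members had enough UMIs for a ratio and none differed by 2-fold, where 7.95% of 3017 genes were at least 2 times higher and 15.7% at least 2 times lower in the mutant. Pmp22 was at 0.60 (0.19 to 0.99), Mal at -0.58 (-1.14 to -0.07) and Mbp at -0.27 (-0.89 to 0.31). Mbp passed 2-fold when cells were thinned to 2000 UMIs (-1.82) or each cell's own CPM was averaged (-1.19), and Mal passed it under the stricter cell filter (-1.11). Mal without its highest mutant droplet was at 194 CPM against 511 CPM in WT. Of 16 programme genes, 3 were higher (Pou3f1 by 2.45, Egr2 by 1.41 and Zeb2 by 1.07 on the log2 scale) and 2 lower. Dhh was at -1.57 (-3.48 to -0.15) and Yap1, on 4 UMIs against 57, at -1.21 (-3.14 to 0.22), which includes no change. Markers listed for other cell types also differed in this class. The neutrophil markers summed to 203 (WT) and 763 CPM (mutant), and the erythroid ones to 129 and 452 CPM. The muscle list, which includes Dmd and Lama2, summed to 2364 and 2810 CPM, with 2 and 3 of its 6 markers at 0 UMIs. Whether the Schwann-like cells make some of the listed genes themselves was not tested. The part of these lists in the library differences was not tested either. The mutant values of this class rest on 14 cells.

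**Figure D4:**
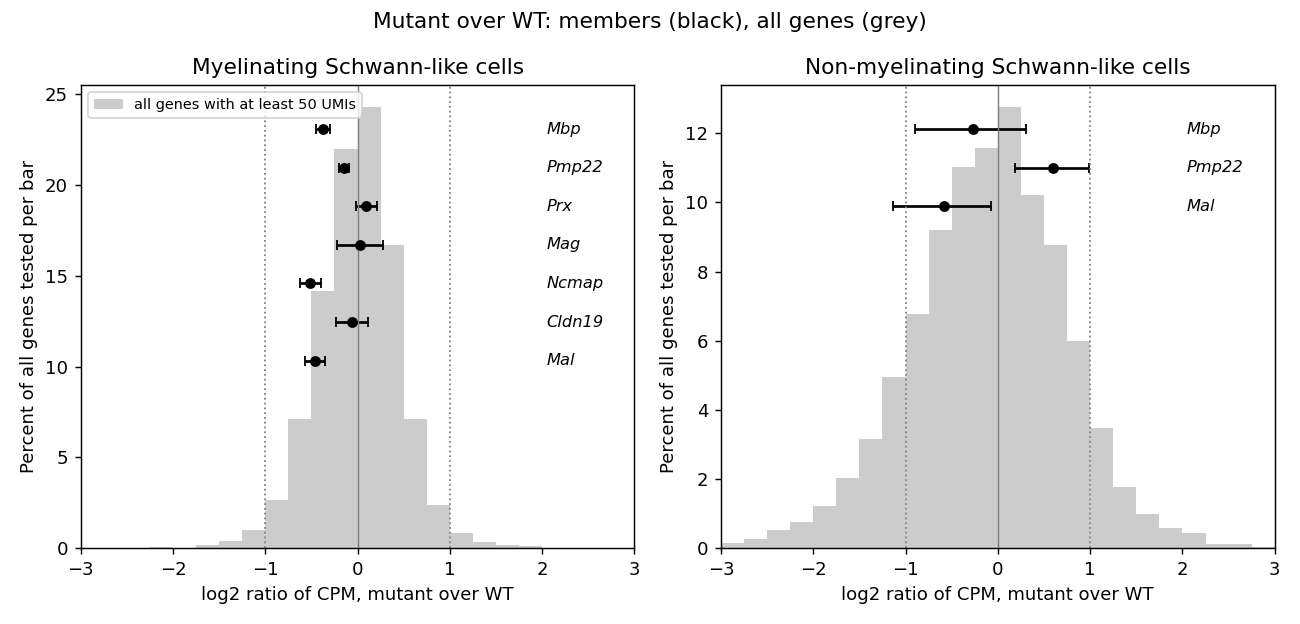
Log2 ratio of the mutant over the WT library for the members (black), with 95% intervals for counting error, over the distribution of all genes with at least 50 UMIs (grey bars, percent of genes per bin), in myelinating and non-myelinating Schwann-like cells. No member passes a ratio of 2 in either direction, and in the myelinating class Ncmap, Mal and Mbp lie lowest.

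How far each member marks Schwann cells in the joint was read from where its UMIs lie. Both Schwann-like classes made up 8.55% of WT and 2.797% of mutant cells, and 3.77% and 1.43% of all UMIs. They held 92.8% of the Cldn19 UMIs of the WT library (interval 90.9 to 94.4) and 80.7% of those of the mutant library (77.1 to 83.9). Ncmap followed with 91.2% and 78.1%. Prx had 87.0% and 75.5%, and Mal 86.6% and 76.7%. The lowest shares were those of 3 members: Mag with 72.8% and 50.5%, Pmp22 with 70.3% and 50.9%, and Mbp with 73.6% and 38.4%. In the WT library neighbouring members of this order from Cldn19 to Ncmap, Prx to Mal and Mbp to Mag had overlapping intervals, as did Mag and Pmp22. The lower shares in the mutant library go with fewer Schwann-like cells and with more UMIs in unnamed clusters, which held 1.497% to 4.53% of each member's UMIs in WT and 9.77% to 17.4% in the mutant. For the 3 lowest members the share in other named classes rose by more: it was 21.9% in WT and 44.2% in the mutant for Mbp, 25.3% and 39.8% for Mag, and 25.6% and 36.7% for Pmp22.

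Outside Schwann cells 15 named classes were examined. The members' ratios to Cldn19 were again set against those in all Schwann-like cells of the library, and the classes are given where the interval of that ratio lay above the Schwann ratio in both libraries. These were 5 classes for Mbp, 4 for Pmp22, 2 each for Prx and Mag, 1 for Mal and 0 for Ncmap. Since Cldn19 was chosen for its large share in Schwann-like cells, every other member stands above the Schwann ratio over all other cells together by that choice, at 1.25 (Ncmap) to 5.44 times (Pmp22) in WT and 1.17 (Ncmap) to 6.70 times (Mbp) in the mutant. The counts of classes are therefore a description and nothing is drawn from them. Cldn19 itself had at most 17 UMIs in any of these classes in WT and 12 in the mutant, so the ratios have wide intervals.

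Outside Schwann cells Mbp had its highest levels in blood lineages, though not only there. The 5 classes in which it was above the Schwann ratio in both libraries were B, neutrophil, granulocyte-monocyte progenitor, macrophage and erythroid-like cells. Its highest level outside Schwann cells was in T and NK-like cells, with 177 CPM in WT against 228 CPM in the mutant. There it stood at 24.4 times the Schwann ratio to Cldn19 in the mutant (4.29 to 970), but at 1.88 times in WT (0.822 to 5.29), where 5 of the 6 Cldn19 UMIs came from 1 droplet. Without its own highest droplet Mbp was at 147 CPM in these WT cells. In macrophage-like cells it was at 22.8 times the ratio in WT (8.86 to 84.0) and 90.6 times in the mutant (25.002 to 749). Neutrophil-like cells had 73.3 and 105 CPM, progenitors 49.4 and 125 CPM, B-like cells 66.9 and 100 CPM, macrophage-like cells 47.0 and 73.3 CPM, and erythroid-like cells 50.6 and 39.2 CPM. Among other lineages, chondrocyte-like cells had 5.03 CPM in WT but 39.2 CPM in the mutant, and adipocyte-like cells 15.2 and 35.8 CPM. These mutant values are near that of the mutant erythroid-like cells. In smooth muscle and pericyte-like cells Mbp was at 5.47 and 1.19 CPM. Its level in myelinating cells was 23.3-fold that in T and NK-like cells in WT and 13.98-fold in the mutant. Counts from the 3′ end of transcripts do not tell the golli transcripts of the locus from those of the myelin protein.

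Pmp22 was found in the connective and contractile lineages. Mesenchymal-like cells had 282 CPM in the WT library and 281 CPM in the mutant library, 10.6 times the Schwann ratio to Cldn19 in WT (6.62 to 18.3) and 138 times in the mutant (24.8 to 5460), and those led by Prg4 and Pi16, genes of the joint lining and of fibroblasts around vessels, were highest with 322 and 321 CPM, with a UMI in 93.4% and 94.9% of cells. The levels in the libraries were nearly equal. Muscle-like cells had 126 and 147 CPM, smooth muscle and pericyte-like cells 95.3 and 73.3 CPM, and osteoblast-like cells 66.1 and 59.4 CPM. Endothelial-like cells had 44.9 and 39.9 CPM and macrophage-like cells 26.4 and 71.8 CPM. Mesenchymal, smooth muscle and pericyte, endothelial and macrophage-like cells were above the Schwann ratio in both libraries. Chondrocyte-like cells had 129 and 133 CPM and were above it in WT only, where they held 0 Cldn19 UMIs against 4 in the mutant. Over all other cells together the choice of Cldn19 puts Pmp22 at 5.44 times the Schwann ratio in WT and 4.03 times in the mutant. Standing above the ratio is therefore a description only. In B-like cells Pmp22 was at 2.57 and 4.65 CPM.

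Mag was found at a low level in macrophages. Macrophage-like cells had 113 Mag UMIs in 87 of 495 cells in WT and 135 in 97 of 477 cells in the mutant, which is 9.25 CPM (7.63 to 11.1) and 10.996 CPM (9.22 to 13.0). These were 60.4 times (22.9 to 225) and 136 times (37.0 to 1136) the Schwann ratio to Cldn19, and no droplet held more than 4 in WT or 8 in the mutant. They were highest in the cluster led by Mmp12, an elastase of inflammatory macrophages, with 10.6 and 14.6 CPM and a UMI in 26.6% and 34.4% of cells, against 6.10 and 6.91 CPM in the cluster led by C1qa and Mrc1. Neutrophil-like cells, with 9 Mag UMIs in WT and 21 in the mutant, were at 6.41 (1.60 to 36.8) and 3.53 times (1.66 to 7.88) the ratio. Over all other cells together the choice of Cldn19 puts Mag at 4.81 times in WT and 4.09 times in the mutant, so the mutant neutrophil value lay below that level. In WT 9 of the 15 classes had 0 Mag UMIs. Cd22, another sialic acid-binding lectin, is the next gene on the same strand, 18833 bases away, and had 15.2 and 14.1 CPM in macrophage-like cells. In B-like cells, where Cd22 had 18.0 and 79.1 CPM, Mag had 0 UMIs in WT and 1 in the mutant.

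Ncmap had its highest level outside Schwann cells in chondrocyte-like cells. Chondrocyte-like cells had 63.3 CPM in WT (48.7 to 81.0, 63 UMIs in 17 of 32 cells) and 37.5 CPM in the mutant (23.5 to 56.8, 22 UMIs in 11 of 104 cells). In WT, with 0 Cldn19 UMIs, the ratio to Cldn19 was above 6.19 times that of Schwann cells at its lower bound, and in the mutant it was at 2.81 times (0.955 to 11.2), which includes an equal ratio. In the mutant 8 of the 22 UMIs were in 1 droplet, and the level without it was 25.3 CPM. The chondrocyte-like cells had medians of 31748.5 UMIs in WT and 3197 in the mutant, so they differ between the libraries in more than genotype. The next class, T and NK-like cells, had 4.98 and 5.65 CPM.

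Prx and Mal had low levels outside Schwann cells. Prx was above the Schwann ratio in endothelial-like cells, with 8.35 CPM in WT (59 UMIs) and 8.75 CPM in the mutant (43 UMIs), at 4.74 times (2.055 to 13.4) and 3.12 times (1.32 to 8.96). It was above it in mesenchymal-like cells too, with 70 UMIs in the WT library (10.0 CPM) and 18 UMIs in the mutant library (3.59 CPM). Without the highest droplet Prx was there at 1.93 times in WT (1.08 to 3.66), the same as over all other cells together. In the mutant it was at 6.96 times (1.08 to 292), on 1 Cldn19 UMI. In the mutant osteoblast-like cells, where Prx was at 22.3 CPM, 11 of the 12 UMIs came from 1 droplet. Mal was above the ratio in endothelial-like cells, with 40.1 CPM (283 UMIs) in WT, at 14.9 times (6.78 to 41.1), and 8.14 CPM (40 UMIs) in the mutant, at 3.03 times (1.28 to 8.75). In the mutant 14 of the 40 UMIs lay in 1 droplet, without which the ratio was 1.97 times (0.793 to 5.86), so that Mal stood above it there only with that droplet. Of the WT UMIs 94.0% lay in 11 of 1037 cells. For Cldn19, the reference, the highest level outside Schwann cells was 14.9 CPM in WT, on 6 UMIs, and 6.82 CPM in the mutant, on 4 UMIs.

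**Figure D5:**
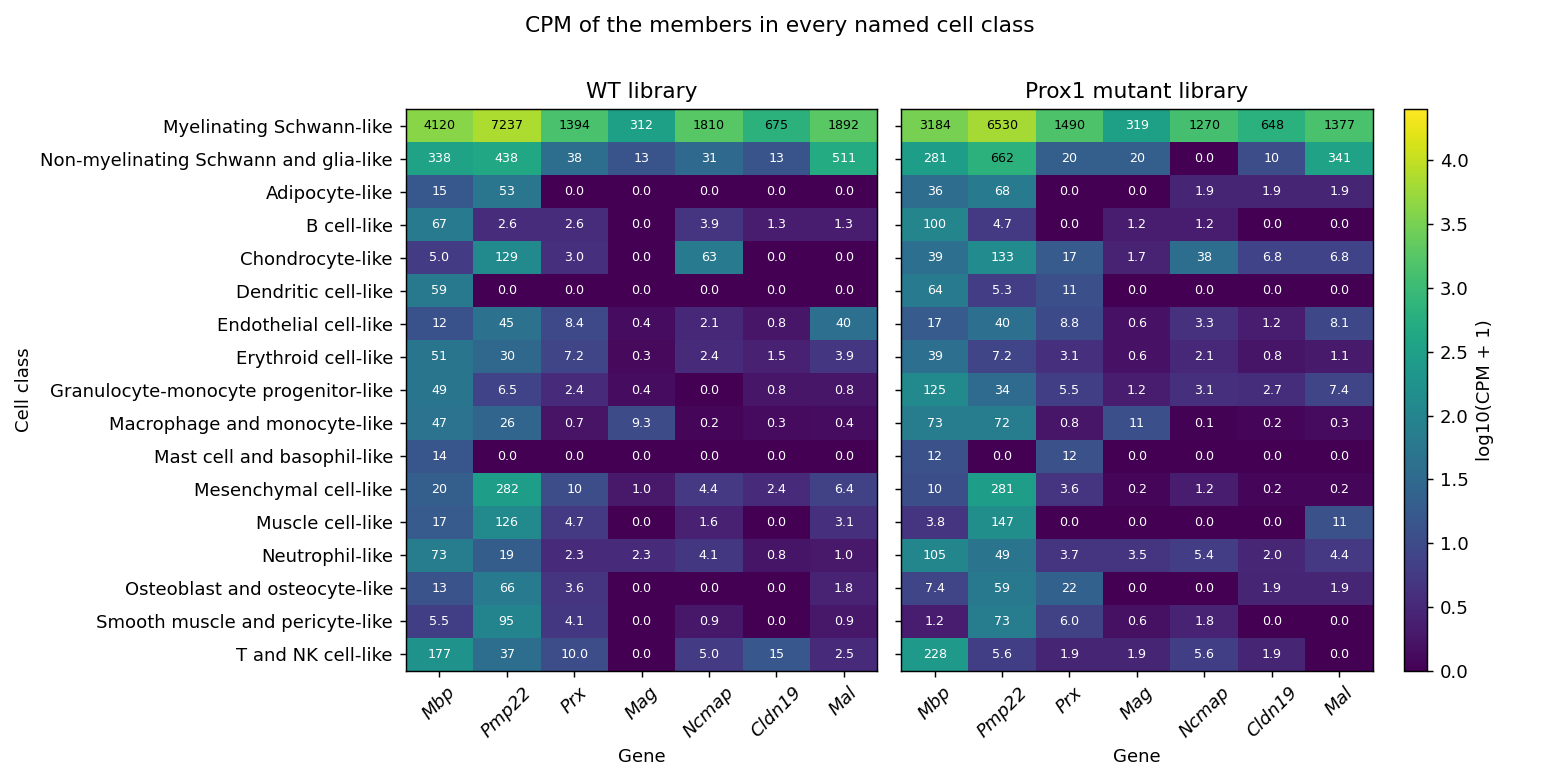
Level of each member in counts per 1000000 UMIs in every named class of the WT and mutant libraries, printed in each cell and coloured on a log scale. Every gene is highest in myelinating Schwann-like cells, Mbp has further values in blood lineages, Pmp22 in mesenchymal and muscle lineages, Mag in macrophages and Ncmap in chondrocytes.

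Profiles were taken per library for named classes with at least 20 cells there, 30 in all, which left out the mutant non-myelinating class. The gene most like the members' mean was Ugt8a, the enzyme that makes galactosylceramide, the main lipid of myelin, with a Pearson r of 0.99. Ugt8a is among the markers that told the Schwann-like classes apart, so nothing is drawn from its place. Gm13403, Rimklb, Sept3 and Pdzph1 followed, also at 0.99. Of the members, Cldn19, Prx and Mag were nearest to the mean of the others, with r of 0.98, 0.96 and 0.96, and Pmp22 and Mbp farthest, with 0.79 and 0.76. These are descriptions over classes that share 2 libraries, dominated by the step between myelinating Schwann-like cells and all others.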

How the data were processed

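Droplet-based 3′ single-cell RNA-seq was made from the TMJ after CFA, with 1 WT and 1 Prox1 mutant library. Cell Ranger 7.0.1 was used by the authors with the mouse build GRCm38, and the tables they deposited hold UMI counts for each gene in each barcode, as counted and without normalization. Whether intronic reads were counted is not given in the sources used here, and the sources differ on the version of the 3′ kit.

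Barcodes needed 500 genes or more and a mitochondrial share below 10%, as in the study, and were clustered with Seurat 5.3.0 in R 4.3.3 (SCTransform with sctransform 0.4.2, anchor integration, 200 principal components, resolution 1.5), with the 7 members left out of the 3000 features. Clusters were named from marker lists that hold no member, when at least 3 markers were raised. Rules added after the clusters were seen left a cluster unnamed when more markers of another class were raised, when at least 90% of its cells came from 1 library or when none of its markers was among its 50 leading genes, and counted the haemoglobin genes as 1 marker. All 7 members were named in the text, with the genes of both lists at the ends of the mutant over WT order. The members and lists were chosen with earlier results of these data known. The comparison with a reference gene set in the design and some genes of the lists are not reported here.

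UMIs were summed per class and library in Python 3.11.15 and given as CPM with exact Poisson intervals. Ratios have conditional binomial intervals and shares have exact Clopper-Pearson intervals, all at 95% and for counting error only (scipy 1.17.1). A gene entered a ratio with at least 50 UMIs over both sides and passed at 2-fold. Automatic doublet calling (Scrublet in scanpy 1.11.5) marked 0 barcodes in both libraries and so did not work, and doublets were kept. Scripts were tested on simulated data. The filters, features, integration, dimensions, resolution, doublets, class calls, scaling and folds were each varied. Cldn19 as the reference for ratios was chosen after seeing the data, and these ratios were computed under the main settings only.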

Additional observations from a re-analysis of the deposited data

Results flagged for a closer look

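Pmp22 was the one member whose mutant over WT ratio had opposite signs in the Schwann-like classes with intervals that both leave out equality. It was higher in the mutant library in non-myelinating cells, with a log2 ratio of 0.60 (66 against 268 UMIs, 662 against 438 CPM), and lower in myelinating cells, with -0.15 (4405 against 8759 UMIs). The difference between the classes was not tested, since each condition is 1 library. The non-myelinating ratio was 0.16 with classes called cell by cell from marker counts, 0.09 after thinning and 0.13 with each cell's own CPM averaged.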

How the results depend on the processing

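The 7 members were at least 2 times higher in myelinating than in non-myelinating Schwann-like cells in both libraries under all 11 alternatives, and 0 passed 2-fold between the libraries in the myelinating class under any. Not all of these alternatives could move the ratios. The fold of 1.5 left every ratio as it was, and resolution 0.5 gave the same numbers of cells in both Schwann-like classes as the main setting. In the non-myelinating class 1 member, not 0, was at least 2 times lower in the mutant under the stricter cell filter (1000 genes, 5% mitochondrial; Mal), after thinning to 2000 UMIs and with each cell's own CPM averaged (Mbp in both), and 1, Pmp22, was higher at a fold of 1.5. The median share of member UMIs in Schwann-like cells, 86.6% in WT and 75.5% in the mutant, was 82.5% and 69.9% under the looser cell filter (200 genes, 20% mitochondrial), and 84.4% in WT under the stricter filter. Of kept cells the myelinating class then made up 5.56% of WT and 1.76% of mutant cells under the looser filter and 3.08% of mutant cells under the stricter one. The looser filter kept more cells (5161 and 7272) but put fewer in the class (287 and 128, not 322 and 147), and the cause was not tested. When cells were called one by one from marker counts, fewer cells passed: the myelinating class was 3.42% of WT and 1.35% of mutant cells, and the median share of member UMIs in both classes was 48.8% and 50.5%. The ratios to Cldn19 were not recomputed under the alternatives.

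Among 251 values for single members, those at a fold of 1.5 equal the main values and stay unmoved by construction. Of all 251, 211 stayed within the counting interval, 40 moved and 249 kept their sign. The other 2 were Prx and Mag in myelinating cells (-0.38 and -0.602 mutant over WT when cells were called one by one). With those calls the log2 ratios of all 7 members in myelinating cells were lower, from -0.38 for Prx to -0.93 for Mal; the cause was not tested. The 14 mutant non-myelinating cells, with 99637 UMIs, limit every value of that class. No paired analysis was possible because the groups share only replicate number 1 and each is 1 library.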

Other observations

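Mal outside Schwann cells was concentrated in a few endothelial-like cells of the WT library. Of 1037 such cells 11 held at least 5 Mal UMIs and together 94.0% of the class's 283 Mal UMIs, 10 of the 11 had 0 Mbp UMIs and 10 lay in a cluster led by Nebl and by Sema3g and Gja5, genes of arterial endothelium. In the mutant library 1 of 620 cells reached 5. The 10 cells without Mbp, 9 of them in that cluster, had 1369 CPM of Mal and 0 UMIs of Mag, Cldn19 and Sox10. These 3 genes were near 0 in the endothelial-like cells without Mal as well, at 0.148, 0.739 and 0 CPM, so nothing is drawn from their absence. The 10 cells also held 7 UMIs of Pmp22, 1 of Prx and 1 of Ncmap. They carried the endothelial genes Pecam1 (619 CPM) and Cdh5 (635 CPM), against 1345 and 958 CPM in the endothelial-like cells without Mal. Slc2a1, the glucose transporter of barrier endothelium, stood at 1107 CPM against 33.5 CPM, and Cldn5, its main tight junction claudin, at 2119 against 207 CPM. Among the genes most raised in them were Slco1a4, with 243 UMIs and 1275 CPM against 0.443 CPM, and Mfsd2a, a lipid transporter of brain capillaries, with 446 against 0.296 CPM. These cells and genes were chosen after their values were seen, so no test was run on them. Barrier capillaries are known from the lining of nerves and from the brain, and where in the tissue these cells lay is not recorded.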
